A study of Homo sapiens with 40 samples.

Results

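The translation initiation and elongation factor mRNAs described here are the transcripts of every gene annotated as protein-coding whose symbol begins with EIF1 to EIF6 or with EEF1 or EEF2, apart from EIF1AY. The rule used names only and no measured value. It found 71 genes among the 57939 of the total RNA table, 19786 of them protein-coding, and by gene identifier the same number among the 58336 of the polyA table, where 68 carried the same symbols and 3 methyltransferases of eEF1A stood under other names. Genes that reached a value of 1 TPM (a library's share of transcripts, scaled by gene length) in at least 2 libraries were tested, which left 64 members in total RNA and 62 in polyA RNA.

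All libraries came from the H1 line of human embryonic stem cells, labelled WT and kept in mTeSR1 on matrigel. Day 0 cells were not differentiated. Day 3 and day 5 cells had been treated with BMP4, a signal that starts mesoderm formation, and then with the fibroblast growth factor bFGF, to drive them towards mesoderm, in a serum-containing medium that the day 0 cells did not receive, so that days differ in medium as well as in age of the culture. A commercial kit of stepwise buffers split the cells of each day into a cytoplasmic extract (CE), a membrane extract (ME), a soluble nuclear extract (SNE), a chromatin-bound nuclear extract (CBNE) and an extract of the remaining pellet (PE), beside libraries named INPUT, which were read as RNA of whole cells. There were 36 total RNA libraries in 18 groups of 2, and 4 polyA libraries from the cytoplasm and the nucleus of day 0 cells, again 2 each. Whether replicates came from separate cultures is not stated, and p-values therefore measure the spread between these libraries, which may be technical. In total RNA this spread was pooled over all 36 libraries, with those of CBNE and PE among them, for every comparison.

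Translation begins when the cap-binding protein eIF4E, the scaffold eIF4G and the helicase eIF4A bring an mRNA to a small ribosomal subunit that carries eIF3, eIF1, eIF1A and eIF2 with the initiator tRNA. eIF2B recharges eIF2 with GTP, and kinases that phosphorylate eIF2 slow this step under stress. During elongation eEF1A delivers aminoacyl-tRNAs and eEF2 moves the ribosome along the mRNA. Many of these mRNAs are known to begin with a C and a run of pyrimidines, the terminal oligopyrimidine motif through which mTOR signalling controls their translation.

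The line between pluripotent and differentiated cells showed in the markers. DPPA4, a pluripotency gene, had a mean of 892 TPM in day 0 INPUT and 181 TPM in day 5 INPUT, and HAND1, a mesoderm factor, went from 0.740 to 787 TPM. SOX2, a defining pluripotency factor, was listed at 0 in INPUT on every day. In CE, ME, SNE and INPUT, a read on a transcript of 1 kb was estimated to equal 0.706 to 1.82 TPM. It equalled 13.8 to 61.8 TPM in CBNE, 25.4 to 30.8 TPM in day 0 PE, 6.59 to 7.26 TPM in day 3 PE and 3.37 to 5.36 TPM in day 5 PE, so that most members rested on few reads in CBNE and in day 0 PE, and no test was made there. Library numbers in the titles jump within day 5. INPUT, CE and ME replicate 1 stand in an earlier run of numbers than ME replicate 2, SNE, CBNE and PE. What the numbers mark is not stated, and on day 5 the run of numbers and the contrasts of SNE or PE with CE cannot be told apart.

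Start sites were compared because the pyrimidine start is the regulatory sequence this family is known for. RefSeq start windows on GRCh38.p14 were found for 56 members. In 12 of them (21.4%) the start base was a C followed by at least 4 bases that were all C or T, read on the gene's own strand. The same was true of 4.07% of all 35116 promoters in that table and of 4.65% of the 15133 of protein-coding genes. The rule was set after the members' values had been seen. A set of 6 is printed from 10 bases before the start to 20 bases from it on, with the pyrimidine run in capitals. EEF1A1 and EEF2 are the main elongation factors, EIF4A2 is a helicase paralogue, EIF3F is an eIF3 subunit, and EIF2S3 encodes the gamma subunit of eIF2, of which EIF2S3B is a copy on another chromosome.
EEF1A1, chr6:73521013-73521042, minus strand: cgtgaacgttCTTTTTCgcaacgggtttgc
EEF2, chr19:3985444-3985473, minus strand: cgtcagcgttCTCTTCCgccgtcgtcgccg
EIF4A2, chr3:186783567-186783596, plus strand: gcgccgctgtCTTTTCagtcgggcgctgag
EIF3F, chr11:7987327-7987356, plus strand: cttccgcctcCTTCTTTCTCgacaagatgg
EIF2S3, chrX:24054946-24054975, plus strand: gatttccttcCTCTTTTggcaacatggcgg
EIF2S3B, chr12:10505880-10505909, plus strand: gactttcttcCTCTTTTggcaacatggcgg
The other 6 were EIF2A, EIF2D, EIF3D, EIF3K, EIF3M and EIF4B. A match is a description of the letters at the annotated start, and whether these cells start transcription there was not tested.

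Elongation factor mRNAs led the family in whole cells. EEF1A1, which encodes the main eEF1A of proliferating cells, stood at 5117 and 5009 TPM in the 2 day 0 INPUT libraries, and EEF2 at 2783 and 2757 TPM. Together they made up 48.5% and 47.7% of the TPM of all members. EIF4G2, the eIF4G relative that lacks an eIF4E-binding site, followed at 982 and 994 TPM. EIF5A, a hypusine-bearing factor that helps ribosomes through difficult peptide bonds, stood at 927 and 936 TPM, and EIF4A2 at 871 and 850 TPM. The 2 libraries lay close together for each of these 5 mRNAs, and their levels as listed did not overlap. The order below EEF2 depended on how copies were counted. With pseudogenes added to the members they are named for, EIF5A stood at 1131 and 1134 TPM and EEF1B2 at 956 and 1055 TPM. In all, 20 members had a mean of at least 100 TPM in day 0 INPUT, 32 lay between 10 and 100 TPM and 19 lay under 10 TPM. The family's summed TPM in INPUT was 16272 ± 6.39 (SD, n = 2) on day 0, 17215 ± 212 on day 3 and 18207 ± 16.9 on day 5, or 1.64%, 1.73% and 1.83% of all TPM. The sum follows EEF1A1, whose mean went from 5063 TPM on day 0 to 7256 TPM on day 5. Most members did not rise. Of 64 tested, 49 had a log2 difference of day 5 minus day 0 below 0 and 15 above 0 (median -0.16, against -0.08 over all genes).

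Several members carry values that depend on how reads were assigned between like genes. EIF4A1, EEF1G and EEF1E1 were listed at 0 in all 36 total RNA libraries, although EIF4A1 and EEF1G encode core factors that dividing cells use. EEF1G shares 99.9% of its exon bases with a gene annotated on the same strand, AP002990.1, whose highest total RNA value was 1.23 TPM, and EIF4A1 shares 48.6% with neighbours that include AC016876.2, at a mean of 26.6 TPM in day 0 INPUT. Processed copies also took values. EEF1A1P5, a pseudogene of which 90.9% of 31-base words occur in EEF1A1, was listed at 1500 and 1576 TPM in day 0 INPUT, and EIF4EP2, 88.1% of whose words occur in EIF4E, at 350 and 301 TPM, above EIF4E itself at 36.4 and 36.7 TPM. Of 137 pseudogenes named for members, 51 were listed above 0 in some library and 12 had a mean of at least 10 TPM in day 0 INPUT. EIF3C and EIF3CL are another such pair, since 98.5% of EIF3CL's words occur in EIF3C, and their separate values are uncertain. In day 0 INPUT, EEF1B2P3 had a mean of 462 TPM beside 481 TPM for EEF1B2, and EIF5AP4, EIF4HP1 and EIF2S2P4 had means of 201, 115 and 107 TPM. The levels of EEF1A1, EIF4E, EIF3C, EIF4A1, EEF1B2, EIF5A, EIF4H and EIF2S2 are therefore uncertain, and the list is not complete.

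EIF5A and EIF5AL1 show how near a copy can be. Their coding sequences of 465 bases differ at 5 bases and are 98.9% identical, and the earliest difference is C12T, counted from 1 at the A of the start codon and given from EIF5A to EIF5AL1. The first 60 coding bases, from the GENCODE 29 transcripts on GRCh38, are shown with that base in capitals.
EIF5A: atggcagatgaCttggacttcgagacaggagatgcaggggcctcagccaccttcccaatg
EIF5AL1: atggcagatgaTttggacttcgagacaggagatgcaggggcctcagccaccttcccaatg
EIF5AL1 stood at 32.9 and 31.5 TPM in day 0 INPUT, and 16.5% of the 31-base words of its whole transcript occur in EIF5A. The part of those reads that came from EIF5A was not tested.

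Whole-cell levels of most factor mRNAs tested differed by less than 2-fold between days, and 2 members fell past the threshold. A member was called when limma's adjusted p was under 0.05 and the log2 difference was at least 1. EEF2KMT, the methyltransferase that modifies a lysine of eEF2, stood at 18.7 and 24.8 TPM in day 0 INPUT, 8.98 and 9.50 TPM on day 3 and 7.27 and 6.46 TPM on day 5. Both day 0 libraries were above all 4 later ones. EEF2KMT fell by 1.14 on the log2 scale by day 3 (SE 0.30, adjusted p = 0.011) and by 1.52 by day 5 (SE 0.30, adjusted p = 0.00053). EIF5A2, a paralogue of EIF5A, stood at 9.89 and 9.39 TPM on day 0, 4.19 and 3.38 TPM on day 3 and 6.96 and 5.05 TPM on day 5, so that day 3 lay lowest. EIF5A2 fell by 1.16 by day 3 (SE 0.39, adjusted p = 0.049), and its day 5 difference of -0.62 was not called (adjusted p = 0.31).

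No member was called higher in INPUT on either day, and 2 were called lower on day 3 and 1 on day 5. Over all genes tested, 4.06% were called higher and 3.38% lower on day 3, and 6.15% and 6.67% on day 5, and whether members are called less often than genes at large was not tested. Day 5 against day 3 called 0 members in either direction (2.49% and 2.32% of all genes), with 6 at an unadjusted p under 0.05 in limma, the only tool run. The day 3 calls were fragile. EIF5A2 lost its call when any of the 4 INPUT libraries of day 0 and day 3 was left out (adjusted p from 0.11 to 0.25), and EEF2KMT lost its day 3 call without day 0 replicate 2 (log2 difference -0.94, adjusted p = 0.13) or without either day 3 library (adjusted p = 0.069 and 0.055). The day 5 call of EEF2KMT held when any of the 4 INPUT libraries of day 0 and day 5 was left out. Fewer cells with an mRNA and less of it per cell cannot be told apart in these bulk samples.

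Smaller shifts had an adjusted p under 0.05 on day 5 without reaching a log2 difference of 1. EEF1A1 stood at 7217 and 7294 TPM in day 5 INPUT, above both day 0 libraries, a log2 difference of 0.52 (SE 0.11, adjusted p = 0.0014), and EIF1, which guards start codon choice, differed by 0.33 (adjusted p = 0.037). EIF2B3, EIF3A, EIF4E, EIF4EBP1, EIF5A and EIF5B differed by -0.57, -0.37, -0.56, -0.60, -0.42 and -0.45 in the same limma comparison, with adjusted p from 0.0012 to 0.037 over these and EIF1. EIF4EBP1, an inhibitor that holds eIF4E when mTOR is off, stood at 31.3 and 34.9 TPM on day 0 and 22.3 and 20.7 TPM on day 5. EIF4A2 stood at 520 and 526 TPM on day 5 against 871 and 850 TPM on day 0, with no overlap. Its log2 difference of -0.72 missed the threshold (SE 0.27, adjusted p = 0.064 in limma). That SE pools the spread of all total RNA groups. The SD of EIF4A2 was 14.7 TPM in day 0 INPUT, 4.09 TPM in day 5 INPUT and 29.3 TPM, on a mean of 43.9 TPM, in day 5 CBNE.

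**Figure D1:**
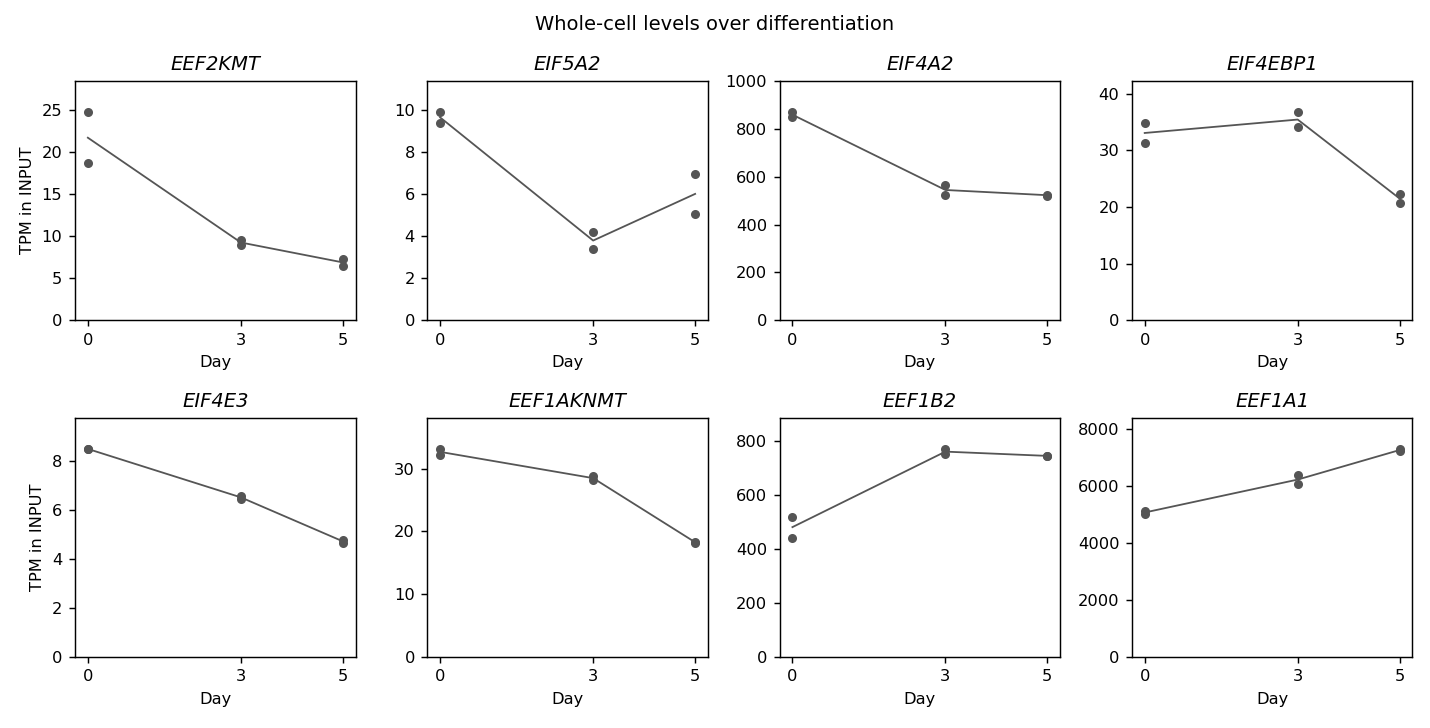
TPM in INPUT (vertical axes, each from 0) against day for 8 members, with a point for each library and a line through the means. EEF2KMT and EIF5A2 are the members called lower on day 3, and EEF1A1 is at 7217 and 7294 TPM on day 5.

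Among 32 other genes of translation control (31 tested), listed with earlier results of these data known, PPP1R15A, the subunit that directs phosphatase to eIF2, rose from 54.5 and 55.9 TPM in day 0 INPUT to 201 and 213 TPM on day 3 and 198 and 193 TPM on day 5. The log2 differences were 1.89 and 1.80. PDCD4, an inhibitor of eIF4A, rose from 11.1 and 11.3 TPM on day 0 to 32.2 and 34.2 TPM on day 5 (log2 difference 1.49). None of the list was called lower.

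In fractionated cells most factor mRNAs were highest in the cytoplasmic extract by TPM as listed. Of the 61 members with at least 1 TPM in INPUT, 41 had their highest mean among CE, ME and SNE in CE on day 0, and 20 had it in SNE. The numbers were the same on day 3, and on day 5 they were 41 in CE, 18 in SNE and 2 in ME. This count was not made over all genes or on TPM without mitochondrial genes, so whether members differ in it from genes at large was not tested. Summed over members, day 0 CE held 21061 ± 274 TPM (SD, n = 2), day 0 SNE 9015 ± 1.71 and day 0 ME 5322 ± 247. On day 5 these sums were 22926 ± 429, 9849 ± 217 and 10783 ± 802, so that ME on day 5 lay above ME on day 0. Mitochondrial genes held 60.5% of TPM in day 0 ME, 47.4% in day 5 ME, 22.4% in day 0 SNE and under 2% in CE. Of the TPM outside mitochondrial genes, members held 2.16% in day 0 CE, 1.17% in day 0 SNE and 1.35% in day 0 ME, and 2.35%, 1.27% and 2.05% on day 5, so that ME then lay above SNE on both days.

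**Figure D2:**
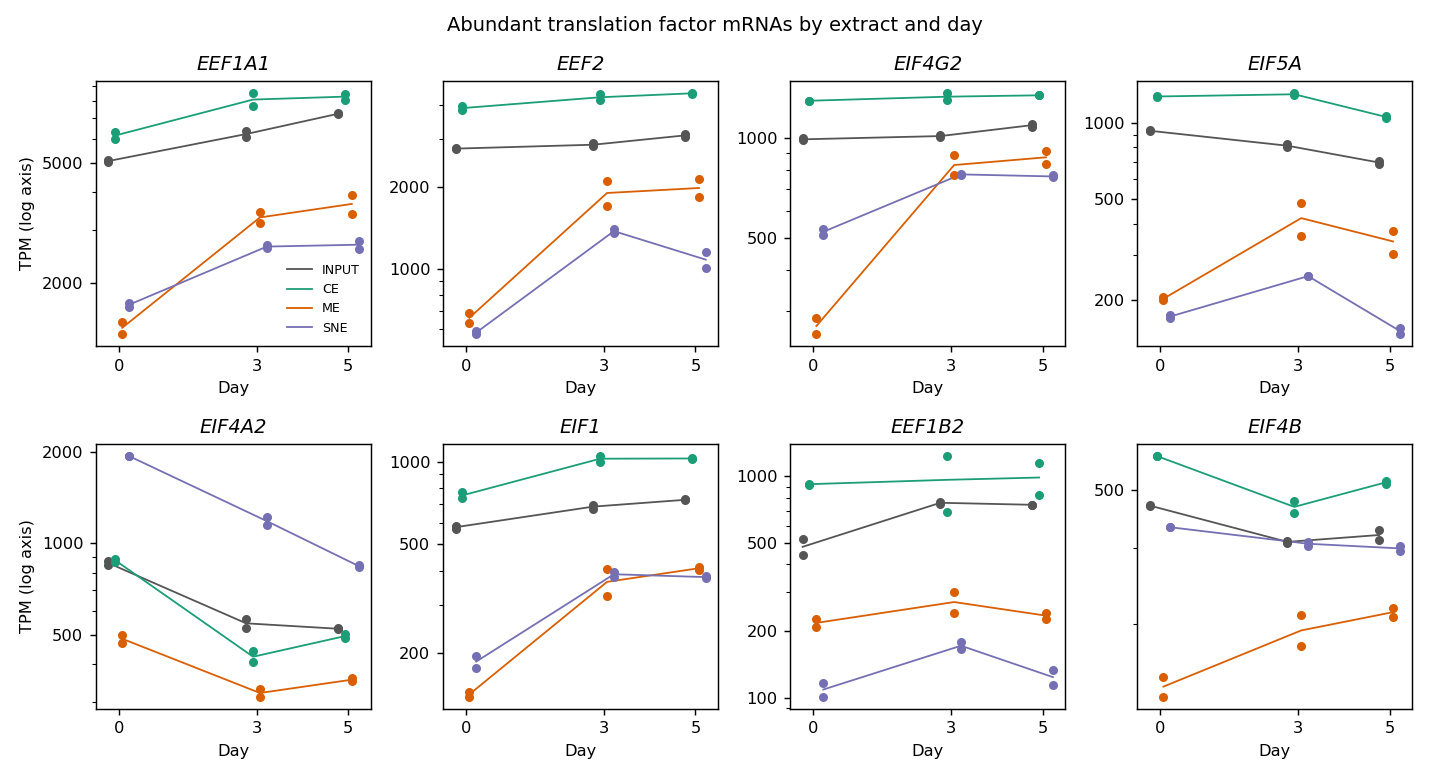
TPM (vertical axes, log scale) against day for 8 abundant members in INPUT, CE, ME and SNE, with a point for each library and a line through the 2 libraries' mean. By mean, EEF1A1, EEF2, EIF5A and EEF1B2 are highest in CE on each day, and EIF4A2 is highest in SNE.

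The elongation factors gave the most uniform contrast between SNE and CE. All 5 tested, EEF1A1, EEF1A2, EEF1B2, EEF1D and EEF2, fell in SNE on every day. With pseudogenes added to the members they are named for, EEF1D lost its call on each day (-0.28, -0.58 and -0.68) and the other 4 kept theirs. EEF2 stood at 3986 and 3830 TPM in day 0 CE and 574 and 588 TPM in day 0 SNE, a log2 difference of -2.75 (SE 0.10, adjusted p = 3.0e-14 in limma). On day 3 it stood at 4389 and 4181 TPM in CE and 1401 and 1348 TPM in SNE, a difference of -1.64. EEF1A1 stood at 6307 and 5992 TPM in day 0 CE and 1671 and 1718 TPM in day 0 SNE, a log2 difference of -1.86, and was at -1.61 and -1.63 on days 3 and 5. No CE library overlapped an SNE library for either gene on any day. EEF1B2, the exchange factor subunit that recharges eEF1A, showed the largest difference of the group, at 926 and 920 TPM in day 0 CE and 101 and 117 TPM in day 0 SNE (-3.08, SE 0.44). EEF1B2 contains 3 snoRNA genes, and 16.4% of its exon bases are shared with genes on the same strand, SNORA41 among them. Reads of those RNAs can enter its value in total RNA, and their part in it was not tested.

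Across the whole family, 19 members were called lower and 7 higher in SNE than in CE on day 0, 16 lower and 6 higher on day 3, and 16 lower and 8 higher on day 5. Over all genes tested, 8.66%, 6.64% and 8.17% were called lower and 30.0%, 30.5% and 35.9% higher on the 3 days. The median member stood at -0.57, -0.36 and -0.36, against medians of 0.53, 0.54 and 0.65 over all genes, so the typical gene was higher in SNE while the typical member was lower. On the 3 days, 51, 50 and 49 of the 64 members lay below the median gene. When every library was set to a common median over all genes, 39, 45 and 48 members were called lower and 1, 2 and 2 higher. When TPM was recomputed without mitochondrial genes, which held 1.53% of TPM in day 0 CE and 22.4% in day 0 SNE, 13, 10 and 13 were called lower and 10, 14 and 13 higher.

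**Figure D3:**
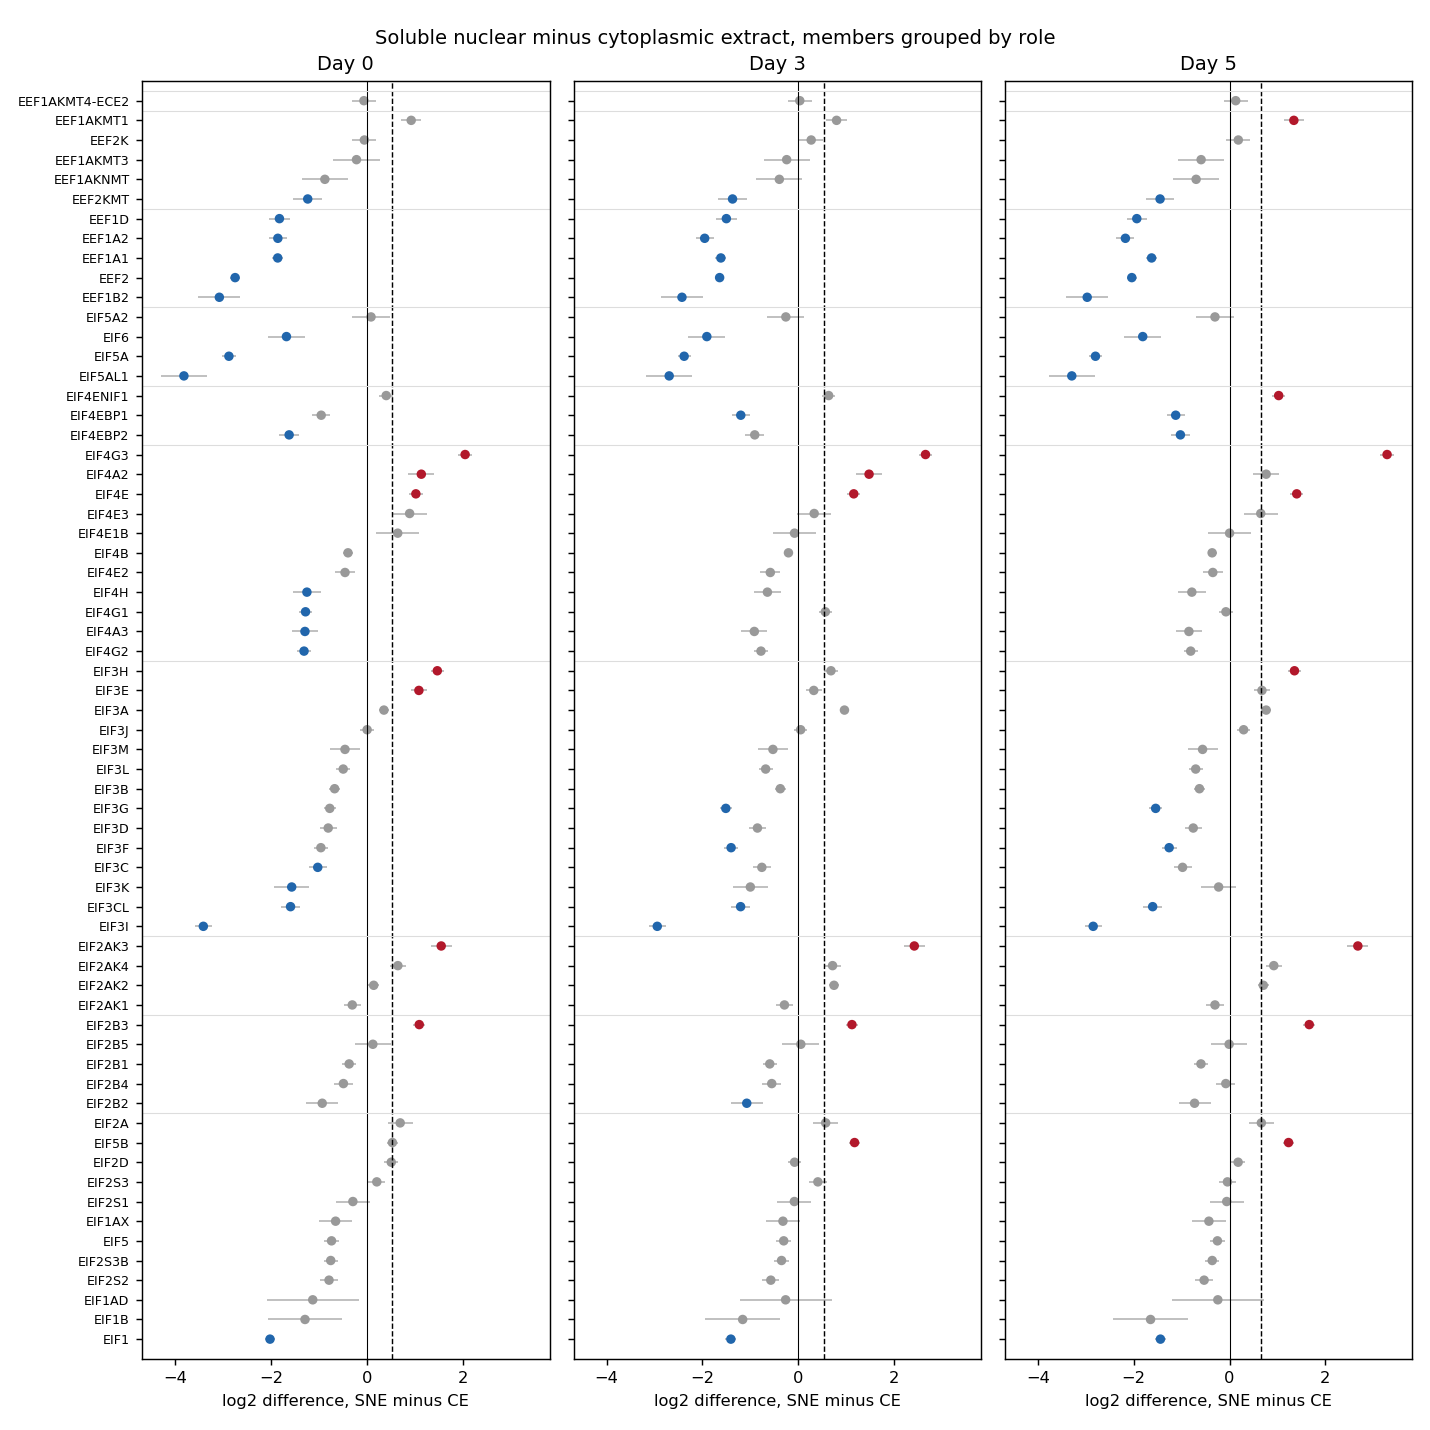
Log2 difference of SNE minus CE (horizontal axes) for the 64 tested members on each day, in rows grouped by role, with bars of 1 standard error. Blue points were called lower, red points higher and grey points neither, the solid line is 0 and the dashed line is the median of all genes tested, at 0.53, 0.54 and 0.65.

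A set of 12 members was called lower in SNE on all 3 days, and it held proteins that act as single soluble factors as well as eIF3 subunits. The share of all genes called lower on all 3 days was not determined, so whether 12 of 64 is unusual was not tested. It comprised the 5 elongation factors, EEF2KMT, EIF1, EIF3CL, EIF3I, EIF5A, EIF5AL1 and EIF6. In all, 23 members were called lower on at least 1 day. Without mitochondrial genes 9 of the 12 were still called on all 3 days, and EEF2KMT, EIF1 and EIF3CL were not. All 12 were at a common median, among 38 members. EIF3I, a peripheral WD-repeat subunit of eIF3, stood at 258 and 252 TPM in day 0 CE and 26.0 and 20.4 TPM in day 0 SNE, a log2 difference of -3.41 (SE 0.18, adjusted p = 4.0e-12). EIF5A stood at 1270 and 1273 TPM in day 0 CE and 175 and 169 TPM in day 0 SNE (-2.88, SE 0.14), and was at -2.38 and -2.80 on days 3 and 5. EIF6, which keeps the large ribosomal subunit apart from the small, stood at 112 and 105 TPM in day 0 CE and 34.7 and 32.0 TPM in day 0 SNE (-1.68, SE 0.39). In each of these the CE libraries lay well above the SNE libraries.

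Subunits of the same complex did not all go the same way. Of 14 eIF3 subunit mRNAs, 4 were called lower and 2 higher in SNE on day 0, 4 and 0 on day 3, and 4 and 1 on day 5. Over all genes tested, 8.66%, 6.64% and 8.17% were called lower and 30.0%, 30.5% and 35.9% higher. On the 3 days, 12, 12 and 11 of the 14 lay below the median gene. At the other end from EIF3I, EIF3H stood at 28.7 and 28.5 TPM in day 0 CE and 77.8 and 84.8 TPM in day 0 SNE, a log2 difference of 1.47 (SE 0.14). EIF3E stood at 24.3 and 23.9 TPM in day 0 CE and 51.3 and 53.5 TPM in day 0 SNE (1.09). EIF3A, the largest subunit and scaffold, differed by 0.36, 0.97 and 0.76 on the 3 days and was not called. EIF3K was uneven between replicates, at 22.8 and 47.0 TPM in day 0 INPUT.

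In the exchange factor eIF2B, EIF2B3, which encodes its gamma subunit, was called higher in SNE on all 3 days (1.10, 1.12 and 1.66), at 6.04 and 6.19 TPM in day 0 CE and 13.8 and 14.6 TPM in day 0 SNE. The other 4 subunits, EIF2B1, EIF2B2, EIF2B4 and EIF2B5, ranged from -0.93 to 0.13 on day 0, and of these EIF2B2 was called lower on day 3. Among the eIF2 kinases, EIF2AK3, the PERK kinase of the endoplasmic reticulum, stood at 13.9 and 13.9 TPM in day 0 CE and 41.5 and 44.3 TPM in day 0 SNE. It was called higher in SNE on all 3 days (1.55, 2.42 and 2.68). EIF2AK1, EIF2AK2 and EIF2AK4, which answer haem shortage, double-stranded RNA and amino acid shortage, lay between -0.30 and 0.92 on the 3 days and were not called. Of the 12 members around start codon choice and the eIF2 ternary complex, EIF1 was called lower on every day and EIF5B, which joins the ribosomal subunits, was called higher on days 3 and 5 (1.18 and 1.23).

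On day 0 the cap-binding group held calls in both directions among close relatives, 3 higher and 4 lower of 11 tested. On days 3 and 5, 0 of the 11 were called lower. EIF4G3, an eIF4G paralogue, stood at 14.9 and 15.2 TPM in day 0 CE and 64.4 and 66.9 TPM in day 0 SNE, a log2 difference of 2.05 (SE 0.14, adjusted p = 1.6e-10). EIF4G1 stood at 536 and 542 TPM in day 0 CE and 227 and 216 TPM in day 0 SNE (-1.28, SE 0.14), and EIF4G2 at 1289 and 1292 TPM in CE and 531 and 510 TPM in SNE (-1.31, SE 0.15). On day 0 the paralogues EIF4G1 and EIF4G3 thus lay on opposite sides, and no 31-base word of EIF4G3 occurs in EIF4G1. On day 3 both had a higher mean in SNE, EIF4G1 at 371 TPM in CE and 550 TPM in SNE. On day 5 mean EIF4G1 was 393 TPM in CE and 373 TPM in SNE. EIF4E was called higher in SNE on all 3 days (1.03, 1.16 and 1.40), at 38.5 and 38.8 TPM in day 0 CE and 79.4 and 79.9 TPM in day 0 SNE. Its copy EIF4EP2 stood the other way round, at 409 and 447 TPM in day 0 CE and 44.9 and 56.4 TPM in day 0 SNE. When the TPM of 5 pseudogenes named for EIF4E was added to it, an alternative chosen after seeing the data, the sums were 447 and 486 TPM in day 0 CE and 124 and 136 TPM in day 0 SNE. The sum was called lower in SNE on all 3 days (-1.83, -1.34 and -1.65, adjusted p = 9.1e-06, 0.00035 and 2.9e-05 in limma), so the direction for EIF4E turned with how its copies were counted. EIF4A2 stood at 870 and 887 TPM in day 0 CE and 1931 and 1940 TPM in day 0 SNE (1.14, SE 0.27). It was called on days 0 and 3 (1.48) and not on day 5 (0.76). EIF4A2 contains 5 snoRNA genes, and 10.5% of its exon bases are shared with small RNA genes on the same strand, so reads of those RNAs can enter its value in total RNA. Their part in it was not tested. EIF4A3, the helicase of the exon junction complex, differed by -1.29 on day 0.

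The calls of higher SNE depended on scaling. At a common median EIF4G3 kept its call on each day (1.18, 1.55 and 1.99). EIF2AK3 lost its call on day 0 (0.68, adjusted p = 0.0012, under the log2 threshold) and kept it on days 3 and 5 (1.31 and 1.38). All other calls of higher SNE were lost on each day. On day 0 EIF3H stood at 0.60, EIF4A2 at 0.27, EIF2B3 at 0.22, EIF3E at 0.21 and EIF4E at 0.15. On day 5 EIF5B and EIF4ENIF1 turned to -0.07 and -0.27.

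EIF4G1, EIF4G3 and EIF2AK3 were the 3 of 64 members called for a rise of SNE against CE between day 0 and day 5. Over all genes, 5.63% were called in that direction and 1.53% in the other. In all, 10 members had an adjusted p under 0.05 for a change of this contrast in limma. The largest log2 change, 1.34 for EIF3K, was not called. Mean EIF3K was 27.0 TPM in CE and 8.56 TPM in SNE on day 0, and 16.6 and 14.1 TPM on day 5. EIF4G1 stood at 376 and 410 TPM in day 5 CE and 396 and 350 TPM in day 5 SNE, which overlapped, where day 0 had CE above SNE. Its difference moved from -1.28 to -0.08, a change of 1.20 (SE 0.19, adjusted p = 0.00025). The move was not steady, since on day 3, which this change leaves out, mean EIF4G1 was 371 TPM in CE and 550 TPM in SNE. EIF4G3 stood at 7.54 and 7.65 TPM in day 5 CE and 78.0 and 88.3 TPM in day 5 SNE, and its difference moved from 2.05 to 3.29, a change of 1.24 (SE 0.20, adjusted p = 0.00027). EIF2AK3 stood at 8.26 and 8.79 TPM in day 5 CE and 57.5 and 62.5 TPM in day 5 SNE, a change of 1.12 (SE 0.31, adjusted p = 0.020). The median gene changed by 0.21, and 0 members were called in the other direction, with 15 of 64 at an unadjusted p under 0.05 in either direction in limma. At a common median the changes were 0.78, 0.81 and 0.70 and none of the 3 was called. EIF2AK3 also lost its call when either day 0 CE library, day 0 SNE replicate 1, day 5 CE replicate 1 or day 5 SNE replicate 2 was left out (adjusted p from 0.056 to 0.076).

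**Figure D4:**
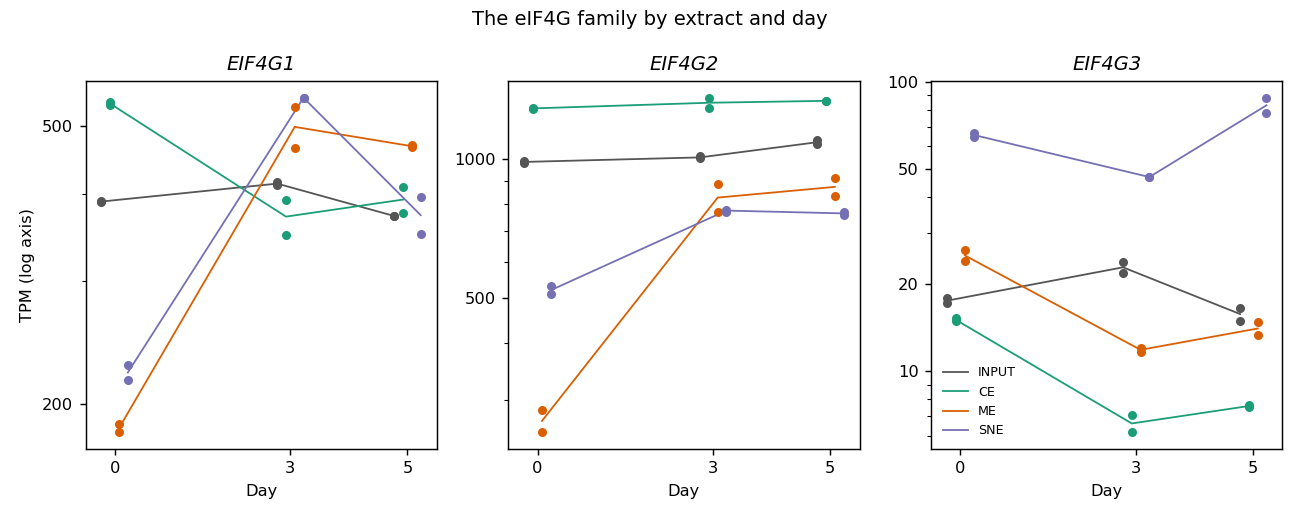
TPM (vertical axes, log scale) against day for EIF4G1, EIF4G2 and EIF4G3 in INPUT, CE, ME and SNE, with a point for each library and a line through the means. In SNE, EIF4G3 is at 64.4 and 66.9 TPM on day 0 and 78.0 and 88.3 TPM on day 5, above every other extract shown.

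The membrane extract held lower shares of factor mRNAs than the cytoplasm. Of 64 members, 43 were called lower and 0 higher in ME than in CE on day 0, 27 and 0 on day 3, and 25 and 0 on day 5 (15.2%, 6.82% and 6.40% of all genes called lower, and 1.41%, 1.00% and 1.69% called higher). In limma 54, 49 and 47 members had an unadjusted p under 0.05 in either direction. The median member stood at -1.59, -0.92 and -0.91, with the median gene at -0.11, 0.00 and 0.00. EIF3I was the lowest on each day, at 24.8 and 27.6 TPM in day 0 ME against 258 and 252 TPM in day 0 CE (-3.23, SE 0.18). On all 3 days 22 members were called lower, among them the 5 elongation factors, 6 eIF3 subunits, 3 eIF2B subunits and EIF4EBP1. The share of all genes called lower in ME on all 3 days was not determined.

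Mitochondrial genes held 60.5% of TPM in day 0 ME, 51.2% in day 3 ME and 47.4% in day 5 ME, against at most 1.86% in any CE library. When TPM was recomputed without them, 9, 3 and 5 members were called lower and 3, 6 and 6 higher in ME, so most calls of lower ME were lost. EIF3I kept its call on each day under that scaling. At a common median over all genes the calls were not lost in this way. There 24 members were called lower in ME on all 3 days and 0 higher, against 22 and 0 without rescaling. EIF4G1 also varied between days in ME itself, at 182 and 187 TPM on day 0, 532 and 466 TPM on day 3 and 470 and 467 TPM on day 5, while its ME against CE difference was -1.54, 0.43 and 0.26.

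In the pellet extract of day 5, 13 members were called lower and 2 higher than in CE (6.21% and 21.4% of all genes). EIF4G3 and EIF2AK3 were the 2 higher ones (1.88 and 1.36). At a common median they stood at 0.99 and 0.47 and were not called, and 42 members were then called lower and 0 higher. Without mitochondrial genes 6 were called lower and 5 higher. Of the 5 elongation factors, EEF1B2 was called lower in this extract, and differences between the factors were not tested. EEF1A1 stood at 9735 and 8191 TPM in day 5 PE and 8465 and 8073 TPM in day 5 CE, which overlapped (log2 difference 0.11, adjusted p = 0.48). EEF2 stood at 3762 and 3152 TPM in day 5 PE and 4440 and 4423 TPM in day 5 CE (-0.36, adjusted p = 0.0055), and EEF1A2 and EEF1D differed by -0.77 and -0.86. EEF1B2 stood at 348 and 318 TPM in PE and 1155 and 823 TPM in CE (-1.55, adjusted p = 0.0066; -1.30 and adjusted p = 0.072 without day 5 CE replicate 1). EEF1A1 in PE stood at 985 and 850 TPM on day 0 and 4359 and 4080 TPM on day 3, in libraries of lower depth, and days were not compared by a test. In CBNE, EEF1A1 ranged from 322 to 586 TPM on days 0 and 3 and stood at 2175 and 2124 TPM on day 5.

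PolyA RNA of day 0 gave a separate view of nucleus and cytoplasm, in libraries scaled on their own. Of 62 members tested, 14 were called lower and 7 higher in the nucleus (6.22% and 30.0% of all genes). The median member stood at -0.34 and the median gene at 0.50, and 53 of 62 members lay below the median gene. At a common median 27 were called lower and 2 higher. EIF4EBP1 was lowest, at 735 and 691 TPM in cytoplasm and 147 and 160 TPM in nucleus (-2.21, SE 0.06). EIF3I stood at 619 and 625 TPM in cytoplasm and 233 and 236 TPM in nucleus (-1.40). EIF3A was highest, at 335 and 358 TPM in cytoplasm and 1233 and 1232 TPM in nucleus (1.83, SE 0.04, adjusted p = 3.7e-06 with 2 residual degrees of freedom). EIF4A2 stood at 441 and 442 TPM in cytoplasm and 1207 and 1208 TPM in nucleus (1.45), and EIF4A1 at 0.73 and 0.74 TPM and 4.89 and 3.68 TPM. EIF3C and EIF4ENIF1, at up to 10.5 and 9.44 TPM in total RNA INPUT, were listed at 0 in all polyA libraries, and EEF1E1, at 0 in total RNA, stood at 6.94 to 21.7 TPM.

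Total and polyA RNA gave the same call for some members and not for others. Of 27 members called lower in either the day 0 SNE or the polyA nucleus comparison, 6 were called in both: EEF1B2, EEF1D, EIF3I, EIF4H, EIF5A and EIF5AL1. They are 6 of the 19 in SNE and 6 of the 14 in polyA nucleus. EIF4A2 and EIF4G3 were called higher in both, 2 of 7 in each. EIF4E by itself was called higher in SNE (1.03) and with its pseudogenes lower (-1.83). In the polyA nucleus EIF4E was called lower, at 47.8 and 46.5 TPM in cytoplasm and 19.9 and 18.8 TPM in nucleus (-1.24, SE 0.06). Adding the pseudogenes named for EIF4E left these polyA values unchanged. The 2 preparations differ in fractionation as well as in RNA selection.

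Gene length, which the rule did not use, ordered the members between SNE and CE, and most members called higher in SNE had long genes. EIF4G3 spans 370597 bases with its introns (chr1:20806292-21176888, GRCh38), EIF2B3 136201 bases (chr1:44850522-44986722), EIF2AK3 70836 bases (chr2:88556741-88627576) and EIF4E 58954 bases (chr4:98871684-98930637). EIF5A spans 5465 bases (chr17:7306999-7312463), EEF1B2 3344 bases (chr2:206159585-206162928) and EIF3I 9677 bases (chr1:32221928-32231604). Spearman's rho between gene span and SNE minus CE over the 64 members was 0.70, 0.69 and 0.70 on the 3 days, close to the 0.66, 0.66 and 0.70 over 14972 protein-coding genes, so the relation was not particular to the family. These are correlations across genes of the same libraries, given without a p. With the longest annotated transcript in place of the gene span, rho was 0.31, 0.41 and 0.37. The order by gene span was not particular to SNE. Over the 64 members, ME minus CE had a rho of 0.70, 0.52 and 0.52 with gene span on the 3 days. PE minus CE on day 5 had a rho of 0.69. In polyA RNA, nucleus minus cytoplasm had a rho of 0.04 with gene span over 62 members and 0.15 over 12953 protein-coding genes.

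By classes of span set after the values were seen, 6 of 18 members of at least 40000 bases were called higher in SNE on day 0 and 1 lower, and 1 of 14 under 10000 bases was called higher and 8 lower. On day 5 these were 8 higher and 0 lower, and 0 higher and 9 lower. Over all genes of any span, 30.0% were called higher and 8.66% lower on day 0, and 35.9% and 8.17% on day 5. Whether long members differ from genes at large was not tested. EIF4A2, at 6696 bases, was the short gene called higher. Members with a pyrimidine start had values near those of the others. On day 0, 1 of 12 was called higher and 3 lower in SNE, and the median was -0.60, against -0.49 for the 37 tested members in the promoter table without such a start.

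**Figure D5:**
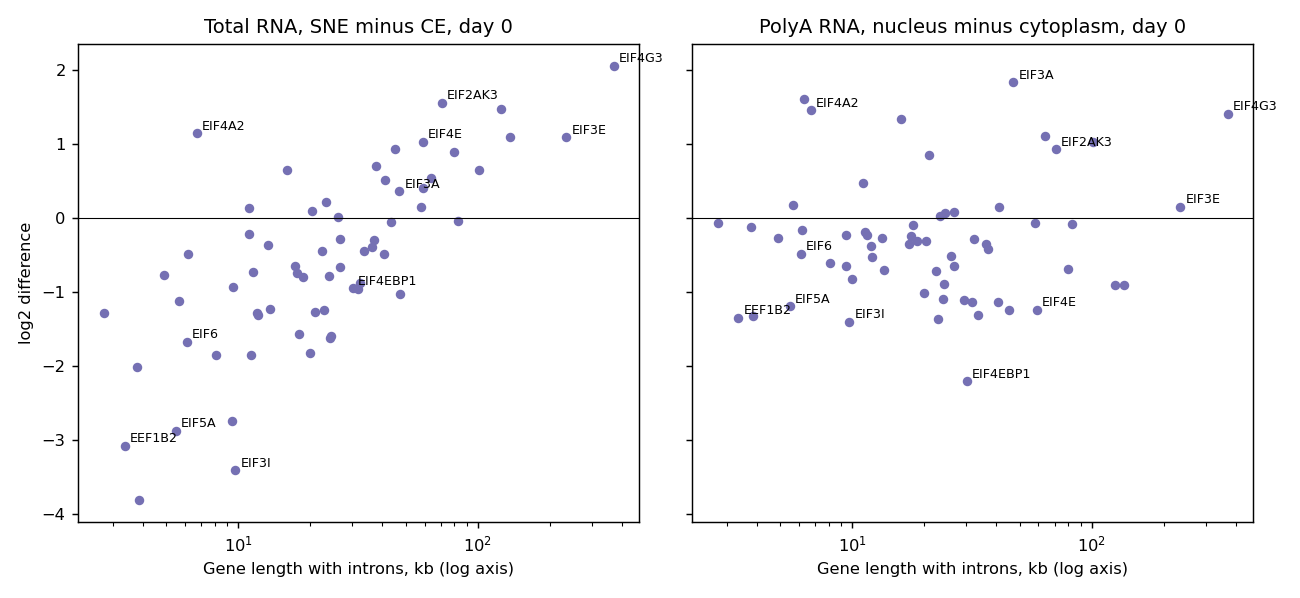
Log2 difference (vertical axis) against gene length with introns (horizontal axes, kb, log scale) for members in day 0 total RNA, SNE minus CE, on the left and in day 0 polyA RNA, nucleus minus cytoplasm, on the right. Long genes lie higher on the left (rho 0.70), and no such order is seen on the right (rho 0.04).

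The other translation genes showed both directions in SNE as well. Of the 31 tested, 9 were called lower and 5 higher on day 0, 6 and 7 on day 3, and 7 and 7 on day 5, beside the 8.66%, 6.64% and 8.17% of all genes called lower and 30.0%, 30.5% and 35.9% called higher. The list gave 18, 16 and 18 lower and 0, 0 and 1 higher at a common median, and without mitochondrial genes 6, 4 and 5 lower and 6, 9 and 8 higher. RACK1, a ribosomal scaffold protein, BTF3 and NACA, which form the nascent chain complex at the ribosome exit, and TPT1 were lower in SNE on each day, with day 0 log2 differences of -1.64, -2.36, -1.19 and -1.64. RPTOR, the mTORC1 subunit, RPS6KB1, an S6 kinase, and MKNK1, a kinase of eIF4E, were higher, at 1.26, 1.55 and 1.14. In ME, 17, 10 and 7 were called lower on the 3 days and 0 higher, beside 15.2%, 6.82% and 6.40% of all genes called lower. Without mitochondrial genes the ME counts became 2, 1 and 2 lower and 1, 4 and 3 higher, and at a common median 14, 10 and 9 lower and 0 higher.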

How the data were processed

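H1 libraries were grouped by their titles. Both deposited tables hold TPM as the authors computed it, a unit read from the column sums (989513 to 998559 in total RNA), since neither the headers nor the labels name it. The tools listed, per the submitters' processing notes, were Salmon 1.3.0, HISAT2 2.0.5, featureCounts 1.6.2 and GATK on hg38, with no role stated. TPM is relative within a library, and abundant RNA lowers all other values, and no spike-in was described. What 1 read is worth in TPM was estimated in each column as the most frequent product of TPM and length over genes with 1 transcript, in kb.

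Members were found by name, and gene spans, exons and copies came from GENCODE 29 on GRCh38. On log2(TPM + 1), limma 3.58.1 under R 4.3.3 fitted the mean of each group over all 36 total RNA libraries (18 residual degrees of freedom, 24735 genes) or the 4 polyA libraries (2 degrees, 16667 genes), with a trended, robust prior. Genes at 1 TPM in at least 2 libraries entered, and p-values were adjusted over them by Benjamini-Hochberg. Fold changes are on the log2(TPM + 1) scale and understate changes of low genes. The fit was tested on simulated data. The text names, beside members of each role, up to 5 called members per direction and comparison. Members, role groups, lists and tests were chosen with earlier results of these data known. Alternatives were other pseudocounts (0.1 and 5), filters, scalings, variance priors, a fit without CBNE and PE, a replicate block, leaving out each replicate and, chosen after seeing the data, pseudogenes summed with members.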

Additional observations from a re-analysis of the deposited data

Results flagged for a closer look

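The contrast of SNE with CE was called as changed between day 0 and day 5 for 3 members by the interaction term of limma. The log2 change was 1.24 for EIF4G3 (adjusted p = 0.00027), 1.20 for EIF4G1 (adjusted p = 0.00025) and 1.12 for EIF2AK3 (adjusted p = 0.020). These are 3 of 64 members, beside 5.63% of all genes called in that direction. At a common median the changes were 0.81, 0.78 and 0.70 and none of the 3 was called, and EIF2AK3 lost its call when any of 5 libraries was left out. EIF4G3 and EIF2AK3 were higher in SNE on both days, and EIF4G1 was lower in SNE on day 0. On day 3, which the term leaves out, mean EIF4G1 was higher in SNE, at 550 TPM against 371 TPM in CE. Both libraries of a group gave the same direction for EIF4G3 and EIF2AK3, while the day 5 SNE and CE libraries of EIF4G1 overlapped. On day 5 the run of library numbers and the extract cannot be told apart. Groups had 2 libraries, too few for a search for single libraries that stand apart.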

How the results depend on the processing

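Counts of members called are given as higher and lower. A common median gave 1 and 39 for SNE against CE on day 0, 2 and 45 on day 3 and 2 and 48 on day 5, 0 and 42 for PE on day 5, 2 and 27 for polyA nucleus, and 0 and 1 for the change of SNE against CE by day 5. TPM without mitochondrial genes gave 14 and 10 for SNE on day 3, 13 higher for SNE on day 5, 3 and 9, 6 and 3, and 6 and 5 for ME on days 0, 3 and 5, 5 and 6 for PE, and 1 lower for INPUT on day 3. Quantile normalisation gave 4 higher for SNE on days 0 and 5, 1 and 14, 2 and 8, and 2 and 9 for ME, and 3 higher for polyA nucleus. A pseudocount of 5 gave 4 higher for SNE on day 0, 1 higher for the change of SNE against CE, 4 and 9 for polyA nucleus and 0 lower for INPUT on day 3. A pseudocount of 0.1, or no filter, gave 1 lower for INPUT on day 3. Leaving out a library gave 0 to 1 lower for INPUT on day 3 and moved no other count by over 1.5 times. The cause of these shifts was not tested.

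For called members, 2762 of 3108 values under alternatives kept direction and call, 331 kept direction and lost the call, and 15 reversed. With pseudogenes summed with members, an alternative chosen after seeing the data, EIF4E reversed in SNE to -1.83, -1.34 and -1.65 on days 0, 3 and 5. In that setting 2 members were called lower in INPUT on day 5, EEF1G beside EEF2KMT. EEF1G itself was listed at 0 in total RNA, so its call rested on pseudogene values alone. Those were 2.38 and 1.17 TPM in day 0 INPUT, worth few reads, and 0 in day 5 INPUT. In SNE on day 5, EIF5B reversed to -0.068 and EIF4ENIF1 to -0.27 at a common median, and EIF4ENIF1 to -0.16 under quantile normalisation. In ME on day 0, quantile normalisation reversed EIF2S3 (0.062), EIF1AX (0.053) and EIF4B (0.27). TPM without mitochondrial genes reversed EIF1AX (0.0033), EIF4B (0.036), EIF3J (0.045), EIF3K (0.20), EIF2A (0.24) and EIF4ENIF1 (0.13) there. Same-numbered replicates did not deviate together (correlations from -0.03 to 0.04 over 11 comparisons), so the numbers were not taken as pairs. A fit with the replicate block gave 19 lower and 7 higher for SNE on day 0, as without it, and moved no count by over 1.5 times. Most members rested on few reads in CBNE and early PE, where no test was made.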
